A study of Mus musculus with 6 samples.

Results

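A set of 8 genes, called members below, was followed through single cells of the mouse hippocampal CA1 field: Slc1a2 and Slc1a3, the glutamate transporters GLT-1 and GLAST, Glul, the glutamine synthetase, Aqp4, the water channel aquaporin 4, Gja1 and Gjb6, the gap junction proteins connexin 43 and connexin 30, Aldoc, the glycolytic enzyme aldolase C, and Slc4a4, an electrogenic sodium bicarbonate cotransporter. The members were chosen by name, 8 of the 20234 genes in the deposited table, and all 8 had UMIs in the cells kept. C57Bl6 male mice received a single injection at postnatal day 28, either placebo (3 mice, numbered 1, 3 and 5) or 5000 IU/kg recombinant human erythropoietin (EPO; 3 mice, numbered 2, 4 and 6), and CA1 was taken 6 h later, digested with papain and DNaseI and passed through a 40 µm strainer. The labels name no transgene, and each mouse gave 1 library. Cells were profiled by Drop-seq, in which a droplet pairs a cell with a barcoded bead, so that each captured transcript carries a cell barcode and a unique molecular identifier (UMI).

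Astrocytes clear glutamate from the synaptic cleft through GLT-1 and GLAST, turn it into glutamine with glutamine synthetase and hand the glutamine back to neurons. Their endfeet on blood vessels carry aquaporin 4, and connexins 43 and 30 couple them into a network that spreads ions and metabolites. GLT-1 is by far the better known in astrocytes, but its RNA has also been described in excitatory neurons of the hippocampus, and glutamine synthetase is also known from oligodendrocytes.

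The table held 1000 barcodes for each mouse. Cells were kept where more than 500 and up to 8000 genes were detected and mitochondrial UMIs did not exceed 40%, which left 684 placebo and 948 EPO cells with 7875760 UMIs, from 267231 UMIs in placebo 3 to 2150763 in EPO 4. Median depth ran from 1965 to 2965 UMIs a cell and the median mitochondrial share from 4.61% to 19.0%. Placebo 3 stood apart, with 90 cells and 16.7% of them called doublets, against at most 1.82% in the other 5 mice. Placebo 1 and EPO 4 shared 41 barcode sequences among kept cells, while no other pair of mice shared any, and the copies in EPO 4 had a median of 0.248 of the UMIs of those in placebo 1. Of these 41 pairs, 41 fell into the same class and 1 was astrocyte-like. The labels add D1 (placebo 1, placebo 3 and EPO 2) or D2 (placebo 5, EPO 4 and EPO 6), whose meaning is not stated.

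Cells were clustered without the members, so that the class of a cell was set by other genes. Of 14 clusters, 1 was astrocyte-like, with 232 cells and UMIs of all 22 astrocyte markers other than the members. The remaining classes were glutamatergic-like (820 cells in 5 clusters), oligodendrocyte-like (162), microglia-like (98, none of them from placebo 5), endothelial-like (91), GABAergic-like (80), oligodendrocyte precursor-like (OPC-like, 72) and mural or fibroblast-like (52), and 25 cells led by hemoglobin genes stayed unnamed. One barcode of placebo 5 inside the astrocyte-like class carried UMIs of 5 of 7 ependymal markers, whereas every other barcode of the class had at most 1. It held 29026 UMIs, which was 34.5% of all astrocyte-like UMIs of that mouse, and 319 of the 328 UMIs that the ependymal list had there. The largest astrocyte-like barcode of any other mouse held at most 10.0%. It was not called a doublet, and the members reached 3135 CPM together in it (UMIs per 1000000 UMIs), so levels, UMI shares, ratios and EPO comparisons in astrocyte-like cells are given with and without it.

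The genes are spread over the genome. In GENCODE vM21 (GRCm38), Slc1a2 spans chr2:102658659-102790784 on the plus strand, Slc1a3 chr15:8634124-8710764 on the minus strand and Glul chr1:153899944-153909723 on the plus strand. Gja1 lies on the plus strand at chr10:56377330-56402513 and Gjb6 on the minus strand at chr14:57123303-57133611. Aldoc spans chr11:78322968-78327781 and Slc4a4 chr5:88886818-89239653, both on the plus strand. The gene Gm13872 lies on the strand opposite to Slc1a2 and is counted separately in the table, with 7 UMIs in the cells kept.

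EPO signals in many cells through its receptor to STAT5, and astrocyte genes are known to be read by NFI and SOX factors, so the bases before the start sites were searched for these letters. RefSeq start sites on GRCm38.p6 gave 9 promoters for 7 of the 8 members. Both strands of the 250 bases before each start were searched for the letters TTCNNNGAA of STAT factors, the full palindrome of NFI, AACAAT of SOX factors, GGGCGG of the GC box, and TATAAA of the start-site box. Slc1a2 is shown for its pattern in glutamatergic-like cells, Slc1a3 as the other transporter and the internal Aldoc start for its pair of STAT matches. Matches are in capitals, some of them as the reverse complement. The Slc1a2 window is chr2:102706188-102706437 (plus strand, inside the GENCODE gene), that of Slc1a3 chr15:8710808-8711057 (minus strand) and that of Aldoc chr11:78323948-78324197 (plus strand, inside the gene).
Slc1a2: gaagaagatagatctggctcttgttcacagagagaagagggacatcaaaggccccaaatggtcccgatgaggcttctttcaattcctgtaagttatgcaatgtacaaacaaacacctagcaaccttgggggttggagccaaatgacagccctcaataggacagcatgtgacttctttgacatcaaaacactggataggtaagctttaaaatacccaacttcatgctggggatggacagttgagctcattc
Slc1a3: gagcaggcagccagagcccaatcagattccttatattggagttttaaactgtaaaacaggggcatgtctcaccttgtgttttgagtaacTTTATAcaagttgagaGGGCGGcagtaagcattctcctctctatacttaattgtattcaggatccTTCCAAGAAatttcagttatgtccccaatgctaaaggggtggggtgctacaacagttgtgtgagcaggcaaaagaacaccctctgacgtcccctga
Aldoc: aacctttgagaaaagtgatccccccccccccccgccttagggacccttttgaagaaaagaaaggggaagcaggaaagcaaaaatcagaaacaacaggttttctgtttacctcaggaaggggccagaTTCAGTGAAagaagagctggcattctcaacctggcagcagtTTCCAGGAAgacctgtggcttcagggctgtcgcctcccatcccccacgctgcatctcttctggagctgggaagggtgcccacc

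Of the 9 member promoters, 2 had the STAT letters (one each of Aldoc and Slc1a3), against 7.02% of all 32851 promoters of this length. GC box letters were found in 4 of 9 (of Aldoc, Glul, Slc1a3 and Slc4a4), against 32.7% of all promoters. Letters of the start-site box were found in 1 of 9, that of Slc1a3, against 12.4%. SOX letters, found in 9.42% of all promoters, and NFI letters, found in 0.0365%, were in no member window. The Slc1a2 window, which lies inside the gene, held none of the letters searched. The bases before the GENCODE start of Slc1a2 at chr2:102658659 were not searched. These are matches of letters in a window, not sites of binding.

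All 8 members were highest in astrocyte-like cells. Levels in CPM are UMIs of a gene per 1000000 UMIs of its class in a mouse, averaged over mice with at least 5 cells of the class, and since Drop-seq reads 1 end of each transcript they were not divided by gene length. Slc1a2 was the most abundant, at 10912 ± 1894 CPM (SD, n = 6 mice), followed by Slc1a3 at 5673 ± 760 CPM and Aldoc at 5372 ± 1540 CPM. Glul reached 3284 ± 801 CPM, Gja1 2687 ± 658 CPM and Slc4a4 2401 ± 304 CPM. Aqp4 and Gjb6 were lowest, at 1414 ± 256 and 760 ± 305 CPM. Without the barcode that carried ependymal genes, Slc1a2 was at 11636 ± 1579 CPM, Slc1a3 at 6088 ± 1034 CPM and Aldoc at 5646 ± 1286 CPM, and the means of the other members moved by less than 1 SD. No mouse had a lower astrocyte-like level than any mouse of another class for any member, as the plot of levels by class shows. The classes come from the same cells, so these levels are descriptions without a test.

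**Figure D1:**
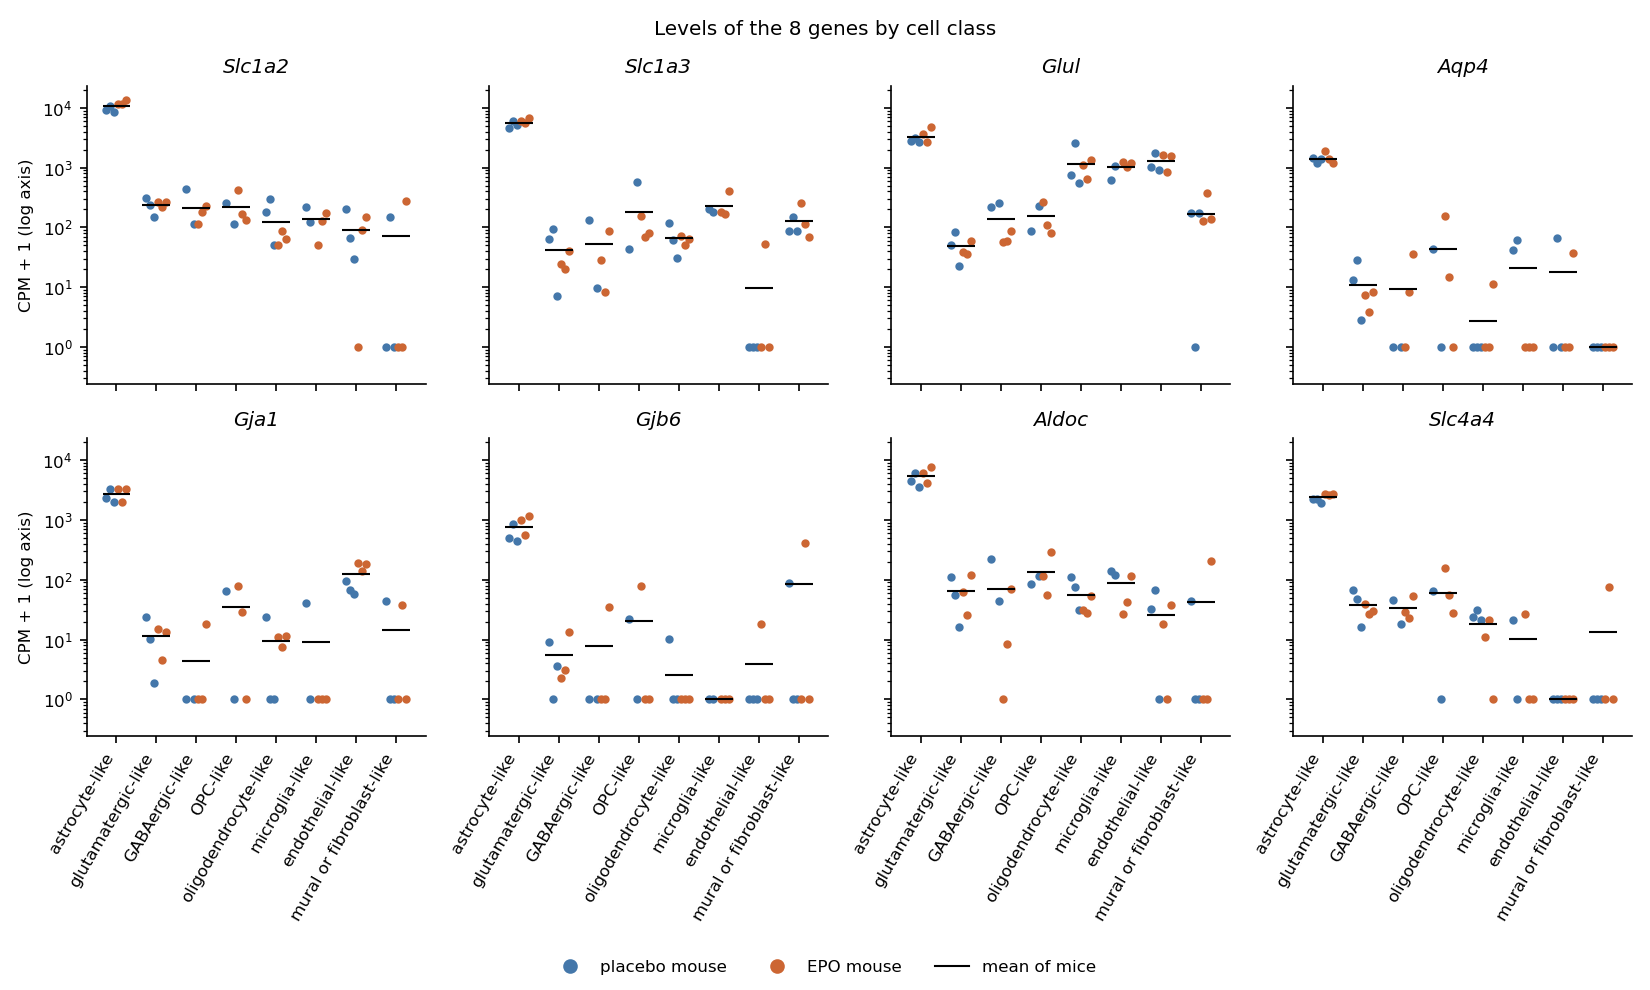
Levels of the 8 genes by cell class, in CPM + 1 on a log axis, with 1 point per mouse (blue placebo, orange EPO; mice with at least 5 cells of the class) and the mean of mice as a line. Every gene is highest in astrocyte-like cells, and Glul alone is near 1000 CPM in endothelial-like, oligodendrocyte-like and microglia-like cells as well.

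Astrocyte-like cells held most UMIs of 7 members and 51.1% of those of Glul. They held 93.7% of Aqp4, 92.7% of Gja1, 90.6% of Slc1a3 and 88.2% of Gjb6 UMIs. For Aldoc, Slc4a4 and Slc1a2 the share was 85.6%, 84.9% and 78.4%. Without the barcode that carried ependymal genes the share was 93.5% for Aqp4, 92.6% for Gja1 and 51.0% for Glul, and between 78.4% and 90.6% for the other 5. The 2 members with the lowest shares were Glul and Slc1a2, and their remaining UMIs lay in different classes. Oligodendrocyte-like cells held 25.3% of the Glul UMIs, endothelial-like cells 9.56% and microglia-like cells 4.43%. Of the Slc1a2 UMIs, 17.7% were in glutamatergic-like cells, by far the largest class.

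The level of Glul was at 1295 ± 406 CPM in endothelial-like, 1155 ± 741 CPM in oligodendrocyte-like (n = 6 mice each) and 1037 ± 251 CPM in microglia-like cells (n = 5). These 3 neighbours in the order overlapped between mice, whereas microglia-like cells did not overlap with the next class, mural or fibroblast-like cells at 164 ± 120 CPM. Glutamatergic-like cells came last for this enzyme, at 47.3 ± 21.5 CPM. Over classes and mice Glul was therefore the member least like the rest, with a Pearson r of 0.52 to the mean of the other members, against 0.85 to 0.95 for the remaining 7 (38 points, which share mice and libraries).

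The order below astrocyte-like cells differed between the transporters. For Slc1a2 it was, among the named classes, glutamatergic-like (239 ± 53.7 CPM), OPC-like (218 ± 127), GABAergic-like (214 ± 137), microglia-like (138 ± 63.8), oligodendrocyte-like (121 ± 99.2), endothelial-like (89.0 ± 75.9) and mural or fibroblast-like cells (70.6 ± 117), and every pair of neighbours overlapped. The unnamed cells, left out of this order, were at 299 ± 152 CPM (n = 3 mice, 12 UMIs of Slc1a2), above the glutamatergic-like mean. For Slc1a3 the next was microglia-like (226 ± 99.4 CPM), and glutamatergic-like cells, at 40.3 ± 31.7 CPM, were above endothelial-like cells only. Gja1, which is also known from vessel walls, was next highest in endothelial-like cells, at 121 ± 57.5 CPM. That level rested on 1 (placebo 3) to 11 UMIs (EPO 2) a mouse, and EPO was not compared with placebo in this class. Aqp4 had no UMI in mural or fibroblast-like cells, Slc4a4 none in endothelial-like and Gjb6 none in microglia-like cells. The second place of Gjb6 in mural or fibroblast-like cells, 82.7 ± 164 CPM, rested on 13 UMIs.

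In single cells the members were found together. Every one of the 232 astrocyte-like cells carried a UMI of Slc1a2, up to 117 in a cell, 119 cells carried all 8 members and none carried fewer than 3. To compare classes at equal depth, each cell was thinned to 500 UMIs, which left out no cell. After thinning, a median of 6 members per cell was found in astrocyte-like cells, and 99.1% had at least 3, against 0% of glutamatergic-like cells. The share of astrocyte-like cells with a UMI after thinning was 97.0% for Slc1a2, 89.7% for Aldoc, 88.8% for Slc1a3 and 78.0% for Glul. It was 67.2% for Slc4a4, 65.5% for Gja1, 46.1% for Aqp4 and 28.4% for Gjb6, and the unthinned shares of these last 2 were 79.7% and 63.8%. The order of shares is that of the levels apart from 2 swaps of neighbours, Aldoc before Slc1a3 and Slc4a4 before Gja1.

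At resolution 2 the astrocyte-like cells fell into 2 clusters, a larger one of 164 cells and a smaller one of 68 cells led by Gja1, Aldoc, Htra1, Apoe, Clu, Mt2 and Mt1. The leading gene of the larger was Ccdc153, one of the ependymal markers, and this cluster held the barcode that carried them; without it, Slc1a3, Pla2g7 and Aqp4 led. Aldoc was at 6606 ± 953 CPM in the smaller (n = 5 mice) and at 4600 ± 1760 CPM in the larger cluster (n = 6), and Gja1 at 3337 ± 649 and 2243 ± 549 CPM. Without the barcode the larger cluster was at 4963 ± 1496 CPM of Aldoc and 2361 ± 399 CPM of Gja1. The means of all 8 members were higher in the smaller cluster, with and without the barcode. Slc1a2 was at 11765 ± 1453 CPM there, against 10485 ± 2710 CPM in the larger cluster and 11489 ± 1885 CPM without the barcode. These clusters also differed in depth, with medians of 2497 and 1494 UMIs a cell, and in mitochondrial share, with medians of 9.41% and 17.5%, whose part in the difference was not tested.

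Slc1a2 in glutamatergic-like cells stood out from the other members by its ratio to them. The gene had 1249 UMIs there, the 7 other members together 986 and Slc1a3 156. Its level was 305, 239 and 146 CPM in placebo 1, 3 and 5, and 262, 221 and 262 CPM in EPO 2, 4 and 6, which is 2.19% of the astrocyte-like level. For the other members the glutamatergic-like level was 0.39% (Gja1) to 1.53% (Slc4a4) of the astrocyte-like level.

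In astrocyte-like cells there were 0.51 ± 0.06 Slc1a2 UMIs per UMI of the 7 others (n = 6 mice, range 0.464 to 0.622; 0.51 ± 0.06 also without the barcode that carried ependymal genes). In barcodes with at most 500 detected genes, which may hold free RNA or debris rather than whole cells, the ratio was 0.70 ± 0.10. In glutamatergic-like cells it was 1.39 ± 0.63. By mouse it was 0.923, 0.765 and 2.30 in placebo 1, 3 and 5 and 1.44, 1.96 and 0.946 in EPO 2, 4 and 6, higher than in the astrocyte-like cells and in the low barcodes of the same mouse in 6 of 6 mice. Against Slc1a3 alone, the glutamatergic-like ratio was 10.1 ± 7.39, the astrocyte-like ratio 1.92 ± 0.18 and that of the low barcodes 2.58 ± 0.44, again with the glutamatergic-like value above both in 6 of 6 mice. With Glul left out of the other members, an alternative added after the data were seen, the ratio was 1.91 in glutamatergic-like cells (1.04 to 3.47 in the 6 mice), 0.60 ± 0.07 in astrocyte-like cells and 0.85 ± 0.14 in the low barcodes, above both in 6 of 6 mice. The level that the other members' UMIs would give glutamatergic-like cells was 106 CPM at the astrocyte-like ratio (44.4% of that measured) and 147 CPM at the ratio of the low barcodes (61.3%). The part of RNA from other cells in the measured level was not tested. This pattern was already known from these same cells when it was chosen to be followed. The ratios and counts of mice, here and in the clusters below, are therefore descriptions without a test. Without the shared barcodes the glutamatergic-like ratio was 1.44 and the level 244 CPM.

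**Figure D2:**
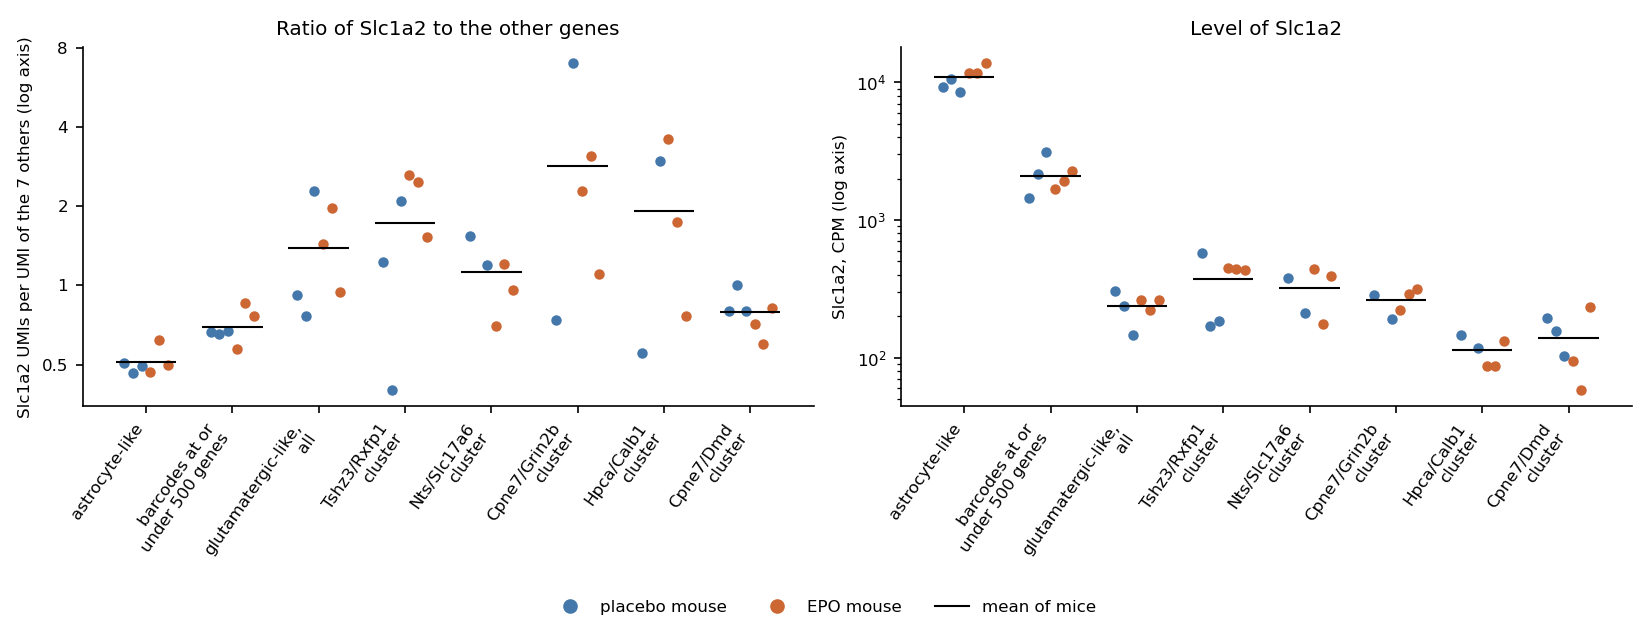
Left, Slc1a2 UMIs per UMI of the 7 other genes (log axis); right, the level of Slc1a2 in CPM (log axis), in astrocyte-like cells, in barcodes at or under 500 genes, and in all and each cluster of glutamatergic-like cells. Points are mice (blue placebo, orange EPO) and lines their means. Glutamatergic-like cells have the higher ratio (1.39 against 0.51) and the lower level (239 against 10912 CPM).

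The raised ratio was found over several kinds of glutamatergic-like cells. The cluster led by Tshz3 and Rxfp1, closest to the markers of deep cortical layers (240 cells), had 374 ± 162 CPM of Slc1a2 and a ratio of 1.73 ± 0.84, above the astrocyte-like ratio in 5 of 6 mice. The cluster led by Nts and Slc17a6, closest to the subiculum markers (86 cells), had 321 ± 119 CPM and a ratio of 1.12 ± 0.31, above in 5 of 5 mice. The remaining 3 clusters were closest to the CA1 markers. Of these, the one led by Cpne7 and Grin2b (192 cells) had 260 ± 50.8 CPM and a ratio of 2.85 ± 2.51 (5 of 5 mice). The one led by Hpca and Calb1 (158 cells) had 114 ± 26.7 CPM and a ratio of 1.93 ± 1.34 (5 of 5 mice). The one led by Cpne7 and Dmd (144 cells) had 140 ± 66.2 CPM and the lowest ratio, 0.79 ± 0.13 (5 of 6 mice). These counts of mice are against the astrocyte-like ratio. Against the low barcodes of the same mouse, not every mouse was above in the Tshz3 and Rxfp1, Hpca and Calb1, and Cpne7 and Dmd clusters. Their lowest mice were placebo 3 at 0.400 (low barcodes 0.655), placebo 1 at 0.552 (0.665) and EPO 4 at 0.600 (0.855). In the Nts and Slc17a6 cluster the lowest was EPO 2 at 0.699 (0.572), and in the Cpne7 and Grin2b cluster placebo 1 at 0.738 (0.665). The ratios of the clusters overlap between mice and rest on 58 to 352 UMIs of the other members.

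Counts of cells gave a weaker contrast than the ratio. Slc1a2 had a UMI in 432 of 820 glutamatergic-like cells (52.7%), and 197 of these 432 (45.6%) had no UMI of any other member. Thinned to 500 UMIs, the share with Slc1a2 was 10.5% (95% exact binomial interval 8.47 to 12.8%), against 0.122% to 2.44% for the other members. Microglia-like cells, which should lack the transporter, had 11.2% (5.74 to 19.2%), oligodendrocyte-like cells 4.32% and endothelial-like cells 3.30%, at unthinned median depths of 1216, 4433 and 1667 UMIs against 3778 UMIs in glutamatergic-like cells. By the share of cells alone, then, glutamatergic-like cells were not above microglia-like cells. The ratio of Slc1a2 to the other members was 0.11 ± 0.06 in microglia-like cells (n = 5 mice), where Glul made up 144 of the UMIs of the others and the remaining 6 made up 51, and it was 0.40 ± 0.15 without Glul. Slc1a3 was in 10.2% of microglia-like cells, against 2.20% of glutamatergic-like cells. Intervals cover counting error only. There were 100 glutamatergic-like cells without a UMI of the other members or of the 22 astrocyte markers, and 27 of them carried Slc1a2, at 202 ± 68.5 CPM (n = 5 mice). Of such cells in the other classes, Slc1a2 was in 4 of 8 unnamed, 1 of 6 GABAergic-like, 2 of 16 microglia-like and 1 of 13 oligodendrocyte-like cells, and in 0 of 3 OPC-like, 0 of 7 endothelial-like and 0 of 5 mural or fibroblast-like cells. The classes were not tested against each other on these small counts. The 100 glutamatergic-like cells held 38 UMIs of Slc1a2. Their median depth was 1582.5 UMIs, against 3778 in the whole class, and the part of low depth in their lack of the other genes was not tested. GABAergic-like cells had a ratio of 0.87 ± 0.53 to the 7 others and of 1.90 ± 1.27 without Glul (n = 5 mice). Against Slc1a3 alone their ratio was 9.39 ± 9.20, above the astrocyte-like value of the same mouse in 5 of 5 mice, on 64 UMIs of Slc1a2 and 11 of Slc1a3.

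The genes whose level over classes and mice was most like the mean of the members were Aldh1l1, an astrocyte enzyme of folate metabolism (r = 0.98), then Lcat, which esterifies cholesterol, Slc25a18, a mitochondrial glutamate carrier, Scara3 and Atp13a4 (r = 0.97 each; 38 points, 10738 genes compared). Over glutamatergic-like clusters and mice, the nearest to Slc1a2 were Foxn3 (r = 0.81), Flrt1, Ptchd4 and Atg16l2 (0.77 each) and Ccdc136 (0.76; 24 points). Aldh1l1 was also one of the markers by which the astrocyte-like class was named, so its place was partly set in advance. The points share mice and depth, and these correlations are descriptions.

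The lists of other genes in the same systems had their highest levels in several classes. Of genes with at least 50 UMIs, 4 of 12 for glutamate and GABA handling were highest in astrocyte-like cells by pooled CPM (Glud1, Slc6a11, Slc7a10 and Slc1a4). In the list of potassium and sodium pumping it was 2 of 6 (Atp1b2 and Kcnj16). In the endfoot and water channel complex it was 4 of 7, Mlc1, Hepacam and Dtna among them, while Dmd, dystrophin, was at 281 CPM in astrocyte-like and 534 CPM in glutamatergic-like cells. None of the 5 other connexin and pannexin genes was highest in astrocyte-like cells, and Gjc3, a connexin of myelin-forming cells, was at 920 CPM in oligodendrocyte-like cells. None of 8 bicarbonate and pH genes was, and Car2, a carbonic anhydrase, was at 2407 CPM in oligodendrocyte-like and 737 CPM in astrocyte-like cells. In the list of glycolysis, glycogen and lactate it was 2 of 6 (Ldhb and Pygb), and Aldoa, the paralog of Aldoc, was at 666 CPM in glutamatergic-like and 392 CPM in astrocyte-like cells. Slc6a11, Slc7a10, Atp1b2 and Mlc1 were also among the astrocyte markers by which the class was named. Their highest level in astrocyte-like cells was thus largely set in advance.

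EPO was compared with placebo over mice, on UMIs summed per mouse in astrocyte-like cells, glutamatergic-like cells, oligodendrocyte-like cells and all cells kept. In edgeR's quasi-likelihood test with Benjamini-Hochberg adjustment at 5%, no gene was called in any of these populations (percent called 0 in each, of 1444, 8777, 1685 and 10551 genes tested), and accordingly 0 of 8, 0 of 6, 0 of 1 and 0 of 8 members tested. At an unadjusted p under 0.05 there were 52, 145, 30 and 138 genes (3.60%, 1.65%, 1.78% and 1.31% of those tested), with no member among them. DESeq2 called 0, 0, 0 and 1 gene and limma none. The labels do not say that the mice came from separate litters, and p-values measure the spread between these 6 mice.

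In astrocyte-like cells, Slc1a2 was at 9312, 10543 and 8473 CPM in placebo 1, 3 and 5, and at 11627, 11769 and 13748 CPM in EPO 2, 4 and 6. All EPO mice were above all placebo mice, which held for 4.78% of the genes tested. The difference was 0.36 ± 0.23 on the log2 scale (SE; 95% interval -0.13 to 0.85; unadjusted p 0.136, adjusted p 0.999 by edgeR), and 0.36 without the shared barcodes. Without the barcode that carried ependymal genes, placebo 5 was at 12816 CPM, above EPO 2 and EPO 4, the groups overlapped, and the difference was 0.16 ± 0.22 (-0.31 to 0.62). The separation of the groups in Slc1a2 thus rested on 1 barcode of 1 mouse.

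Slc4a4 had the same course. It was at 2266, 2218 and 1952 CPM in placebo 1, 3 and 5, and at 2677, 2568 and 2725 CPM in EPO 2, 4 and 6, without overlap, as in 4.78% of the genes tested. Without that barcode placebo 5 was the highest of all 6 mice, at 2963 CPM, and the log2 difference went from 0.28 to 0.07 (95% interval -0.41 to 0.56).

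Among the 6 remaining members, the groups overlapped with and without the barcode. EPO mice below all placebo mice were found for 3.6% of the genes tested and for 0 members. Without the barcode, 0 of 8 members separated the groups, against 4.59% of 1307 genes with all EPO mice above and 3.29% with all below. Gjb6 had the largest difference, 0.60 ± 0.32 (95% interval -0.07 to 1.28; unadjusted p 0.077, adjusted p 0.999 by edgeR), from 490, 869 and 452 CPM in placebo 1, 3 and 5 and 1010, 556 and 1184 CPM in EPO 2, 4 and 6, and was at 0.41 (-0.21 to 1.04) without the barcode. Slc1a3 was at 4608, 5992 and 5129 CPM in placebo and 6063, 5490 and 6756 CPM in EPO mice, a difference of 0.19 that went to -0.01 without the barcode. Glul was at 2822, 3156 and 2630 CPM in placebo and 3661, 2710 and 4725 CPM in EPO mice (0.32, then 0.12). For this enzyme and for Gja1, Aldoc and Gjb6, EPO 4 lay within or below the placebo range and EPO 6 above it. Aldoc had 4483, 6060 and 3594 CPM in placebo and 6194, 4206 and 7695 CPM in EPO mice (0.32, then 0.16). The connexin Gja1 had 2294, 3248 and 2011 CPM in placebo and 3241, 1982 and 3348 CPM in EPO mice (0.16, then 0.03). Aqp4 had 1450, 1189 and 1368 CPM in placebo and 1890, 1395 and 1194 CPM in EPO mice (0.14, then 0.08).

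**Figure D3:**
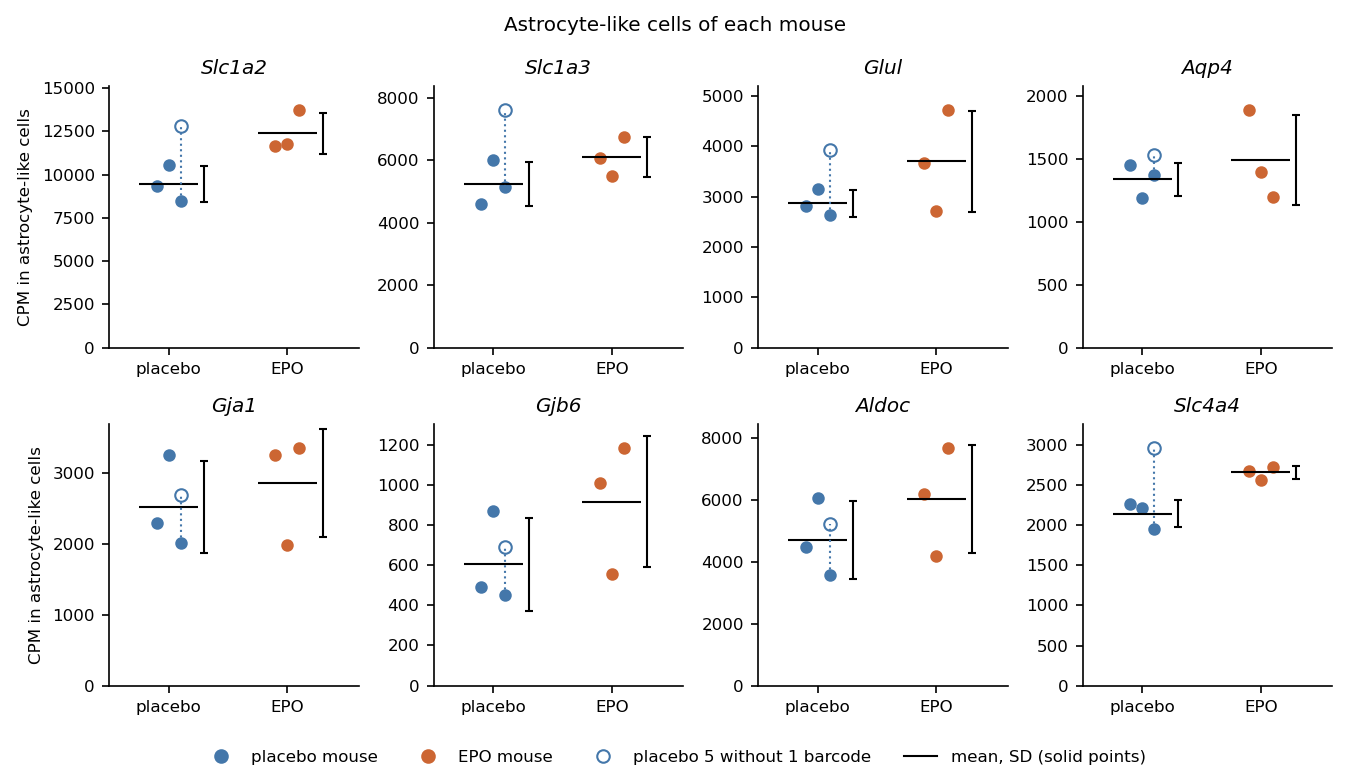
CPM of each gene in the astrocyte-like cells of each mouse, with mean and SD of 3 mice per group; the open circle is placebo 5 without the barcode that carried ependymal genes, joined to its value with it. Slc1a2 and Slc4a4 separate the groups with solid points and overlap once the open circle takes the place of the solid one.

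The 8 members were above 0 in 8 of 8 cases, with a median log2 difference of 0.30, against -0.01 over all genes tested in astrocyte-like cells. Without the barcode it was 7 of 8, with a median of 0.10 against -0.02. The 22 other astrocyte markers moved with them, at 21 of 22 above 0 with a median of 0.25, and at 16 of 22 with a median of 0.07 without the barcode. Markers of other cells in the astrocyte-like class ran from 500 to 3187 CPM in placebo and 499 to 2053 CPM in EPO mice for the 12 oligodendrocyte markers, none of them at 0. The 10 endothelial markers summed to 67.2, 91.5 and 666 CPM in placebo 1, 3 and 5 (18.2 CPM in placebo 5 without the barcode) and to between 39.4 and 40.8 CPM in EPO mice. The 10 mural or fibroblast markers summed to 134, 114 and 416 CPM in placebo (18.2 CPM in placebo 5 without the barcode) and to between 10.1 and 81.6 CPM in EPO mice, and the part of all these markers in the differences was not tested. Within D1, EPO 2 was above the mean of both placebo mice in all 8 members, from 1.14 times (Slc1a3) to 1.49 times (Gjb6). Within D2, where placebo 5 is the only control, the ratio was 0.95 for Aqp4 and 1.19 to 1.92 for the other 7. Without the barcode the D2 ratio was 1.14 for Aldoc and 1.26 for Gjb6 and between 0.804 (Slc1a3) and 0.995 (Slc1a2) for the other 6, so that the mean of EPO 4 and EPO 6 was below placebo 5 in 6 of 8 members. With D1 or D2 as a covariate, the log2 differences ran from 0.22 ± 0.28 (Aqp4) to 0.77 ± 0.33 (Gjb6, SE), and that of Slc1a2 was 0.42 ± 0.24. The barcode that carried ependymal genes was kept in that fit.

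In glutamatergic-like cells, 6 members passed the filter on low counts (not Aqp4 and Gjb6). Slc1a2 differed by 0.05 ± 0.27 on the log2 scale (95% interval -0.52 to 0.62), an interval that holds both a fall by 0.52 and a rise by 0.62. Its sign depended on the mice and barcodes counted, at 0.47 without placebo 1, -0.29 without placebo 5 and -0.05 both without EPO 2 and without the shared barcodes. The EPO level was 0.962 times that of placebo within D1 and 1.66 times within D2. Slc1a3, at 61.7, 92.0 and 6.25 CPM in placebo and 23.2, 19.0 and 39.7 CPM in EPO mice, differed by -0.59 (-1.88 to 0.69). This too turned with the mice counted, at 0.53 without placebo 1 and -1.48 without placebo 5, and the EPO level was 0.302 times that of placebo within D1 and 4.70 times within D2. Of the 6 members 0 separated the groups, against 4.76% of the genes tested with all EPO mice above and 1.75% with all below. The median over the 6 members was -0.09, with 3 above 0, against 0.00 over all genes. With D1 or D2 as a covariate, their differences ran from 0.07 ± 0.36 (Slc4a4) to 0.68 ± 0.64 (Aldoc, SE), and that of Slc1a2 was 0.32 ± 0.23.

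In oligodendrocyte-like cells Glul, the only member tested, was at 755, 2541 and 550 CPM in placebo 1, 3 and 5 and at 1088, 647 and 1350 CPM in EPO 2, 4 and 6. Placebo 3 was the highest mouse and the groups overlapped, while 3.56% of the genes tested had all EPO mice above and 3.15% all EPO mice below. The log2 difference of -0.33 ± 0.41 (95% interval -1.19 to 0.54) became 0.56 without it, and the ratio of EPO to placebo was 0.66 within D1, which holds placebo 3, and 1.82 within D2.

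Over all cells kept, all 8 members had lower means in EPO than in placebo mice, with log2 differences from -0.10 (Gjb6) to -0.76 (Glul) and a median of -0.53 against -0.01 over all genes and an adjusted p of 1.000 by edgeR for each. Again 0 of 8 members separated the groups, against 4.29% of the genes tested with all EPO mice above and 1.96% with all below. In such sums, fewer cells of a type and less RNA per cell cannot be told apart. The members together were at 2994, 6683 and 1723 CPM in placebo 1, 3 and 5 and at 3077, 1842 and 3210 CPM in EPO 2, 4 and 6. Placebo 3 alone was far above the others, and it had the largest part of its UMIs in astrocyte-like cells, 16.4%, against 4.60% to 8.08% in the other 5 mice. Without placebo 3 the differences ran from -0.16 (Aqp4) to 0.65 (Gjb6), and the ratio of EPO to placebo was 0.557 to 0.799 within D1 but 0.952 (Aqp4) to 2.12 (Gjb6) within D2. With D1 or D2 as a covariate they ran from -0.22 (Slc1a3) to 0.37 (Gjb6), and that of Slc1a2 was 0.00. Without the shared barcodes Slc1a2 was at -0.65. Astrocyte-like cells made up 15.6%, 22.2% and 11.6% of the cells in placebo 1, 3 and 5 and 13.8%, 11.9% and 16.9% in EPO 2, 4 and 6, a difference of -2.29 percentage points (exact permutation test, two-sided, p = 0.7, in a design that cannot go below 0.1).

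**Figure D4:**
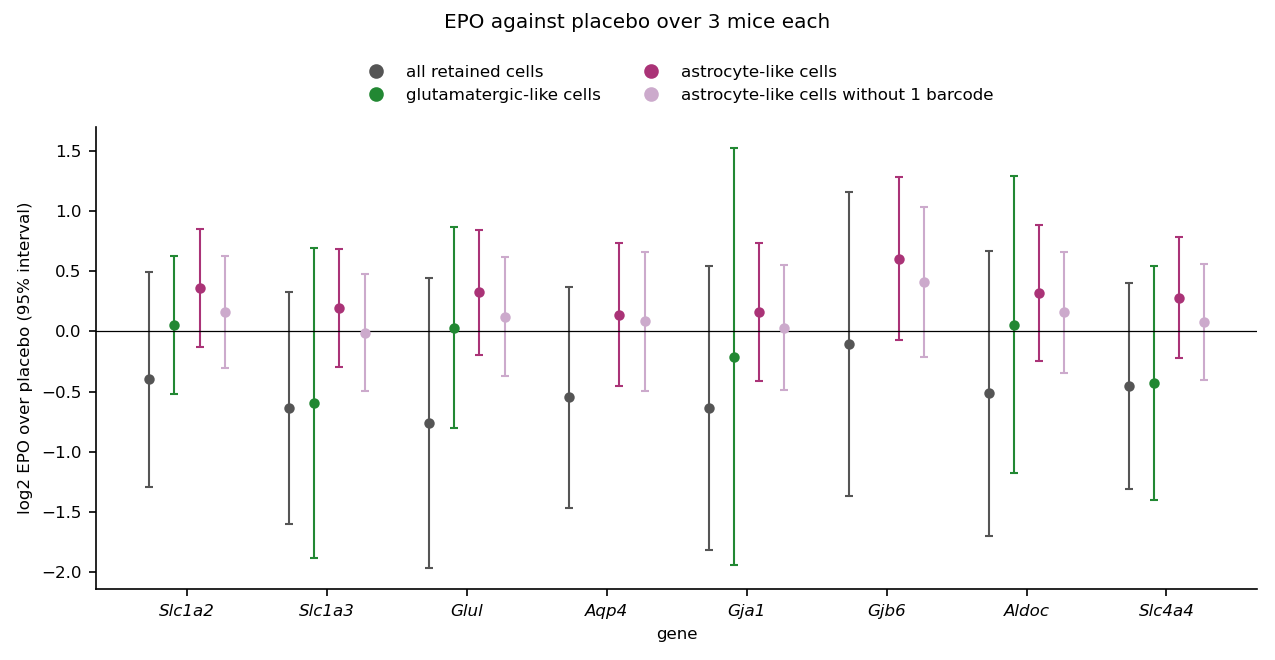
Log2 difference of EPO against placebo for each gene with its 95% interval, in all cells kept, glutamatergic-like cells, astrocyte-like cells and astrocyte-like cells without the barcode that carried ependymal genes. Every interval includes 0.

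**Figure D5:**
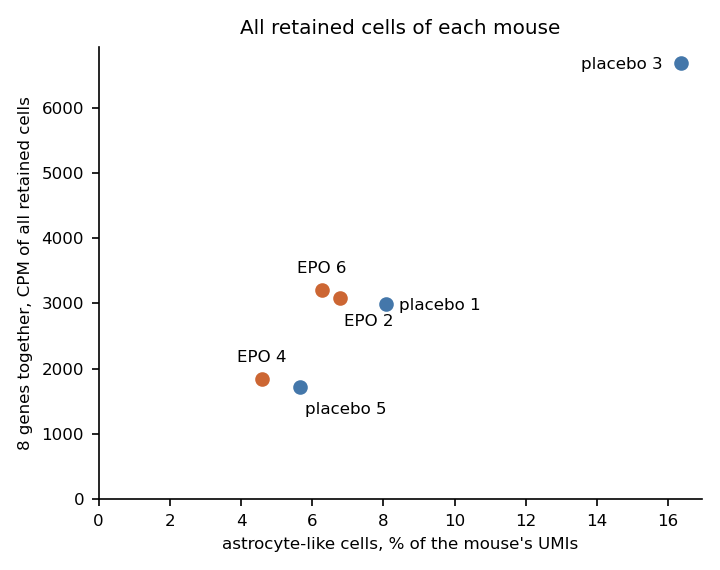
The 8 genes together in all cells kept (CPM) against the percent of UMIs that astrocyte-like cells held, 1 point per mouse (blue placebo, orange EPO). Placebo 3 has both the largest astrocyte-like part (16.4%) and the highest level (6683 CPM).

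The other genes of the same systems gave no call either. In all cells kept, 12, 6, 7, 5, 8 and 6 genes of the lists for glutamate and GABA handling, potassium and sodium pumping, endfoot, connexins, bicarbonate and glycolysis were tested, and 0 rose and 0 fell, with 2 genes at an unadjusted p under 0.05 (1 of pumping and 1 of bicarbonate). In astrocyte-like cells 7, 4, 5, 0, 1 and 3 were tested, in glutamatergic-like cells 6, 4, 5, 1, 7 and 5 and in oligodendrocyte-like cells 1, 2, 1, 3, 1 and 1, with 0 in each direction and 0 at an unadjusted p under 0.05. In barcodes with at most 500 genes Slc1a2 was at 2243 ± 832 CPM in placebo and 1953 ± 294 CPM in EPO mice (exact permutation p = 0.7). It ranged from 1447 to 3106 CPM in placebo and from 1670 to 2257 CPM in EPO mice.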

How the data were processed

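The values used are raw UMI counts, deposited by the authors as a single matrix of genes against cell barcodes; a gene given as missing for a mouse was counted as 0. The submitters' processing notes name bcl2fastq 2.15, STAR 2.4.0 and mm10; the tool and annotation behind the UMI counts are not given in the sources used here. Barcodes were assigned to 6 mice by their names. The study asked for over 1000 genes a cell; over 500 were asked for here, which kept 1632 cells in place of 973.

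Cells were clustered in Seurat 5.3.0 (R 4.3.3) by canonical correlation analysis on 20 dimensions at resolution 1, without the members, and a cluster took the name of a marker list with 3 or more markers present in 10% or more of its cells. Leaving a hemoglobin-led cluster unnamed and singling out barcodes with at least 4 of 7 ependymal markers were rules added after seeing the data. Doublets were called by Scrublet and kept.

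UMIs were summed per mouse and class, filtered by filterByExpr (minimum count 10, minimum total 15), scaled by TMM and tested with edgeR 4.0.16, with Benjamini-Hochberg adjustment over all genes tested. Alternatives were limma 3.58.1, DESeq2 1.42.0, other scaling, no filter, the D number as covariate, over 1000 genes, at most 20% mitochondrial UMIs, no doublets, other resolutions and each mouse left out. The procedure was tested on simulated counts. With no change simulated it called 1 gene in glutamatergic-like cells and 0 in the other populations. With 200 genes changed 4-fold, it recovered from 78% (all cells kept) to 86% (glutamatergic-like cells) of them. False calls then ran from 6 (astrocyte-like cells) to 16 of 172 calls (all cells kept). Smaller changes were not simulated. Exact tests used scipy 1.17.1 (Python 3.11.15). Depth, 267231 to 2150763 UMIs a mouse, limits the precision of low genes.

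The members, gene lists and tests were chosen with earlier results of these data known. All 8 members entered every comparison in which they passed the filter on low counts, but values of some of them are not given here. Of the lists of related genes, those passing the test were to be named and otherwise the one with the most UMIs, some of which are not reported here; those highest in astrocyte-like cells were named after their values were seen. Nearest genes are the 5 with the highest Pearson r of log2(CPM + 10), over sums of at least 10 cells, among genes with at least 50 UMIs.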

Additional observations from a re-analysis of the deposited data

How the results depend on the processing

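Of the counts of genes called, 58 of 64 alternatives left the count as it was or within 1.5 times. Without a filter on low counts, edgeR called 21 genes over all cells kept, 10 in glutamatergic-like, 53 in astrocyte-like and 1 in oligodendrocyte-like cells, in place of 0 in each. DESeq2 called 1 gene over all cells kept. Leaving out 1 mouse gave 0 to 6 calls in glutamatergic-like cells, the 6 without placebo 5, and 0 in the other populations; the cause was not tested. Of the log2 differences of the members, none of them called, 339 of 367 stayed within 1 SE and 28 moved (8 without placebo 3, 7 with D1 or D2 as a covariate, 6 without placebo 5, 5 without placebo 1, 1 without EPO 6 and 1 over 1000 genes), and 35 had the other sign. The main levels and ratios stayed within 1 SD in 58 alternatives, and the astrocyte-like ratio moved from 0.51 to 0.60 with Glul left out. The other levels stayed in 887 and moved in 1 (Glul in microglia-like cells over 1000 genes), and the astrocyte-like share stayed in 11 of 11. Shares of cells with a UMI moved in 27 alternatives and stayed in 5, all of them changes of the depth to which cells were thinned. No paired analysis was run, since the labels name no pairs of placebo and EPO mice. D1 and D2, which hold unequal numbers of placebo and EPO mice, could be fitted as a covariate, and 0 genes were called in each of the 4 populations. The limits are 3 mice a group, 20 to 49 astrocyte-like cells a mouse and, in glutamatergic-like cells, few UMIs of every member but Slc1a2.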
